A study of Mus musculus with 7 samples.

Results

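Mitochondrial fatty acid oxidation and ketone body metabolism were followed through 37 genes in injured kidneys of mice labelled CDH11+/+ (wild type) or CDH11-/- (knockout for Cdh11, the cadherin-11 gene). The genes were chosen by name for their function, from fatty acid uptake to ketone body use, and with earlier results of these data known. All 37 had a row among the 42256 rows of the deposited count table. Whole kidneys came from adult male mice of a mixed background, labelled 129S1/Sv x C57BL/6, 3 of them CDH11+/+ and 4 CDH11-/-. Every mouse, of either genotype, had lost one kidney and carried an osmotic pump that released angiotensin II at 800 ng/kg/min, a hypertensive injury, and was killed 4 weeks after surgery. No uninjured kidney was analysed here, so a difference present before injury and a different response to injury cannot be told apart. The CDH11-/- allele, the cells it affects and the litters of the mice were not described in the sources used here. P-values measure the spread between these 7 libraries.

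Cdh11 itself showed no loss of transcripts under the CDH11-/- label. Cdh11 (ENSMUSG00000031673, mm10 chromosome 8, 102632095 to 102785642, minus strand) stood at 6.79, 4.52 and 10.8 CPM (counts scaled to library size) under the CDH11+/+ label and 11.3, 9.56, 11.6 and 11 CPM under the CDH11-/- label (log2 fold change 0.56, SE 0.25, adjusted p = 0.14, edgeR). Transcripts of the targeted gene were not scarcer under the CDH11-/- label, and they were called higher under it without CDH11+/+ replicate 3 (log2 fold change 0.93, adjusted p = 0.0043, edgeR). The allele was not described, so whether it leaves Cdh11 transcripts is not known, and these counts cannot test the labels. The groups are therefore called by their labels alone, WT-labelled for CDH11+/+ and KO-labelled for CDH11-/-, and every direction given is between labels. Library totals ran from 72087906 to 84786351 counts. Mitochondrial ribosomal RNA, which the mitochondrial genome encodes, took 13.5% to 18.2% of counts in the WT-labelled libraries and 10.7% to 13.5% in the KO-labelled ones. WT-labelled replicate 3 stood apart in its summed level of 4 genes of the Y chromosome (Ddx3y, Eif2s3y, Kdm5d and Uty, a set chosen with earlier results known), 64.7 CPM against 111 to 145 CPM in the other 6 libraries. Counts of called genes without that library are given beside the results.

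Mitochondrial beta-oxidation is the main fuel pathway of the proximal tubule. Fatty acids enter the cell through carriers, are joined to coenzyme A, cross the inner membrane on carnitine, and are shortened in repeated cycles of dehydrogenation, hydration, dehydrogenation and thiolysis, with electrons passed on through the electron transfer flavoprotein. Ketogenesis turns the acetyl-CoA made in this way into acetoacetate and beta-hydroxybutyrate, mainly in liver, and ketolysis turns them back into acetyl-CoA in tissues that burn them, the kidney among them. The nuclear receptor PPAR-alpha and its coactivator PGC-1-alpha are known to drive many of these genes in fasting.

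Values are given as CPM, counts scaled to library sizes that were themselves adjusted by the trimmed mean of M-values. A gene was called where edgeR's quasi-likelihood test gave a Benjamini-Hochberg adjusted p under 0.05 over all 17964 genes tested, and log2 fold changes are KO-labelled over WT-labelled. Of the 37 members 13 were higher and 8 lower, and 16 were not called. Over all genes tested 29.7% were called, 16.8% higher and 12.9% lower. Members and related lists were chosen with earlier results of these data known, so no excess of calls is read from such counts. Without WT-labelled replicate 3 the counts were 12 higher and 8 lower, and without WT-labelled replicate 2 they were 13 and 5. The median log2 fold change was 0.06 over the members and -0.01 over all genes tested, with members on either side of 0. The groups did not overlap in 13 members with the KO-labelled libraries above and 7 below, where 21.9% and 16.6% of all genes tested did so (38.5% in either direction). All 37 members passed the filter on low counts. Fabp1 passed it only through the WT-labelled libraries, the group where it is high, so its difference was required by the filter and counts over the 37 are read with that in mind.

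**Figure D1:**
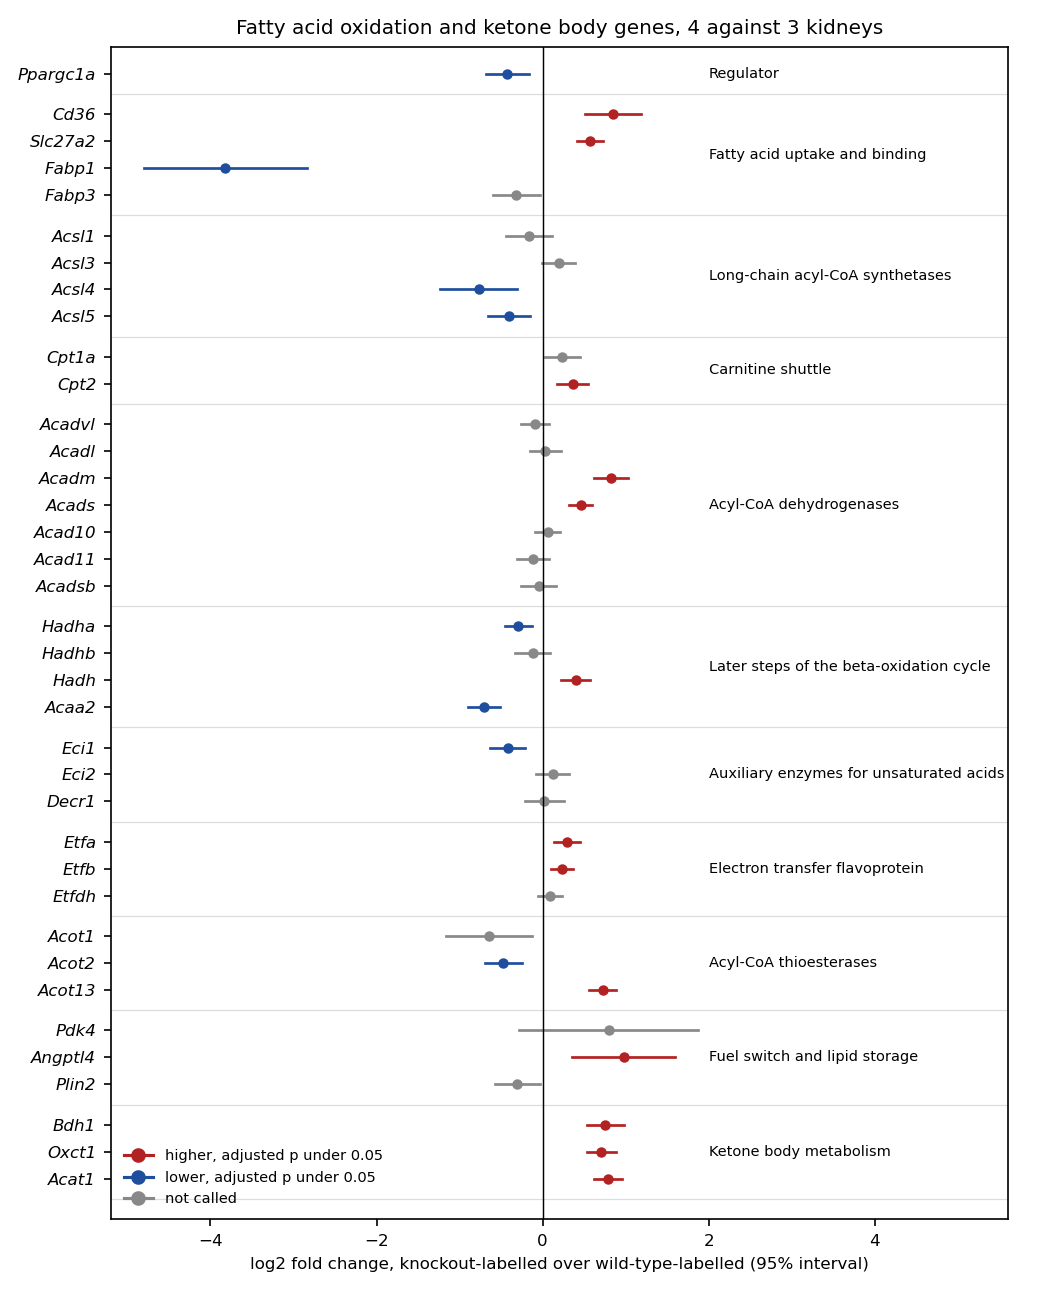
Log2 fold change of each of the 37 members, KO-labelled over WT-labelled, with its 95% interval, grouped by role. Red marks the 13 genes called higher, blue the 8 called lower and grey the 16 not called; all 3 ketone body genes lie between 0.70 and 0.79, while Fabp1 lies at -3.82.

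Markers of the proximal tubule, the segment where most of these enzymes are made, moved with the groups. Of 20 listed proximal tubule markers 13 were higher and 1 lower, and the 19 that are not members summed to 14573 to 18328 CPM in the WT-labelled libraries and 21645 to 23241 CPM in the KO-labelled ones. Abundant markers weigh most in that sum, among them Lrp2 (means of 3948 against 5143 CPM) and Slc34a1 (1787 against 3925 CPM). Hnf4a (684 against 623 CPM), Slc13a3 (823 against 755 CPM) and Aqp1 (486 against 487 CPM) were among the 6 not called, and Slc22a8 was the 1 lower. In bulk tissue, more cells of a type and more RNA per cell cannot be told apart. Divided by that sum, 10 of the 13 members that rose had overlapping groups, and Acadm, Acot13 and Acat1 stayed higher in every KO-labelled library. Of the 8 members that fell, all 8 were lower in every KO-labelled library on that scale, as were 12 of the 16 that were not called. The marker sum was itself higher in every KO-labelled library (ratio of means 1.35), which lowers each member on that scale. Members already below in CPM could only be lower after division, so these counts are no separate result about the members. Summed levels of every other nephron, glomerular and vascular list were lower in each KO-labelled library than in any WT-labelled one. The thick ascending limb list summed to 5379.6 to 6768 CPM against 4326 to 5066 CPM (1 higher and 3 lower of 9 tested), the distal convoluted tubule list to 3862 to 4804 CPM against 2649 to 3444 CPM (0 higher and 3 lower of 8 tested) and the principal cell list to 467 to 673 CPM against 392 to 431 CPM (0 higher and 4 lower of 9 tested). Intercalated cell markers summed to 229.6 to 373 CPM against 174 to 219 CPM (0 higher and 3 lower of 8 tested), podocyte markers to 546 to 654 CPM against 383 to 511 CPM (0 higher and 5 lower of 8 tested) and endothelial markers to 527 to 652 CPM against 399.6 to 481 CPM (0 higher and 5 lower of 10 tested). Ranges overlapped for fibroblast and smooth muscle markers, 296 to 483 CPM against 423 to 532 CPM (2 higher and 2 lower of 10 tested), macrophage markers, 45.9 to 113 CPM against 76.3 to 106 CPM (1 higher and 0 lower of 10 tested), and lymphocyte markers, 1.51 to 5.85 CPM against 3.3 to 3.76 CPM (0 higher and 0 lower of 10 tested). Several listed markers of fat and muscle, tissues that also express these genes, were at or near 0. Adipoq had 0 counts in all 7 libraries, Plin1, Lep, Retn, Cfd and Ucp1 had at most 2 in any, and Ckm had at most 10. Of 10 markers listed for each, 3 were tested, with 1 higher and 0 lower for fat and 0 and 0 for muscle. Of those tested for fat, Lipe, called higher, stood at 11.7 to 16 CPM in the WT-labelled libraries and 18.6 to 22.7 CPM in the KO-labelled ones. Fabp4 stood at 13.4 to 20 CPM against 12.3 to 18.4 CPM, and Cidec at 0.294 to 0.482 CPM against 0.0279 to 0.405 CPM. The fat list summed to 26.1 to 32.4 CPM against 31.5 to 41.5 CPM. The part of cell make-up and of the mitochondrial RNA share in the changes of the members was not tested.

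Ppargc1a, which encodes PGC-1-alpha, the coactivator that raises mitochondrial and oxidation genes, was lower in the KO-labelled kidneys. It stood at 105, 117 and 118 CPM in the WT-labelled libraries and 97.9, 80.5, 67.9 and 91.5 CPM in the KO-labelled ones. All 4 KO-labelled values were under the lowest WT-labelled one (log2 fold change -0.42, SE 0.12, adjusted p = 0.0243, edgeR). The difference did not pass the threshold without WT-labelled replicate 2 or 3 or KO-labelled replicate 2 (adjusted p = 0.0597 to 0.0707, edgeR). Other regulators from a list of 29 had 5 called higher and 2 lower. Pdk3, a kinase that holds back pyruvate dehydrogenase, rose 1.89-fold (adjusted p = 7.86e-05, edgeR), and Mlycd, whose product breaks down malonyl-CoA, the inhibitor of carnitine palmitoyltransferase 1, rose 1.47-fold (adjusted p = 0.000762, edgeR). Acacb, which makes that malonyl-CoA at the mitochondrion, fell 1.54-fold (adjusted p = 0.00286, edgeR). Acaca, whose product also makes malonyl-CoA, went the other way. It was singled out after its values were seen and rose 1.2-fold (adjusted p = 0.00688, edgeR). The nuclear receptor gene Esrrg rose 1.29-fold (adjusted p = 0.00421, edgeR), a call lost with limma on the deposited normalized values (adjusted p = 0.101) and with the factors of the deposited normalized table used as offsets (adjusted p = 0.103, edgeR). Ppara, singled out after its values were seen, was not called, at 58.5, 72.7 and 54.3 CPM against 70.7, 66.9, 75.2 and 82.7 CPM (log2 fold change 0.26, 95% interval 0.01 to 0.50, adjusted p = 0.11, edgeR), and was called without WT-labelled replicate 2 (log2 fold change 0.39, adjusted p = 0.0201, edgeR).

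Of the 4 members that carry fatty acids into and through the cell, the 2 membrane carriers rose, the binding protein gene Fabp1 fell and Fabp3 was not called. Cd36, the scavenger receptor that takes up long-chain fatty acids, stood at 218, 266 and 169.7 CPM in the WT-labelled libraries and 345, 442, 392 and 387 CPM in the KO-labelled ones, so no library of one group reached the other (log2 fold change 0.85, SE 0.15, adjusted p = 0.00358, edgeR). Slc27a2, a carrier of the proximal tubule that also activates very-long-chain acids, held 1590.2, 1629 and 1571 CPM in the WT-labelled libraries and 2340.2, 2389.6, 2425 and 2291 CPM in the KO-labelled ones. This 1.48-fold rise stood well outside the spread within groups, with SDs of 29.4 CPM (n = 3) and 58.7 CPM (n = 4) (log2 fold change 0.56, SE 0.07, adjusted p = 0.000565, edgeR). Slc27a2 is also on the proximal tubule marker list, and its level per 1000 CPM of the other markers was 85.7 to 109 in the WT-labelled libraries and 103 to 109.8 in the KO-labelled ones. Fabp1, the liver-type fatty acid binding protein, was close to absent in all 7 kidneys. Its counts were 45, 53 and 71 in the WT-labelled libraries and 1, 3, 5 and 7 in the KO-labelled ones, levels under 1 CPM in each (log2 fold change -3.82, SE 0.44, adjusted p = 0.000403, edgeR). Since Fabp1 passed the filter on low counts only through the WT-labelled libraries, its p-value is not read as support. Fabp3, the heart-type binding protein, was not called at 27, 23.3 and 33.9 CPM against 24.7, 21.4, 23.6 and 20.3 CPM (log2 fold change -0.32, 95% interval -0.60 to -0.04, adjusted p = 0.085, edgeR), and it was called lower without WT-labelled replicate 2 (adjusted p = 0.0259, edgeR).

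Promoter windows show which of these genes hold a sequence like the element that PPAR-alpha and its partner RXR bind, a direct repeat with a base between its parts. RefSeq (GRCm38.p6, the assembly that mm10 is based on) gave windows for 32 of the 37 members, from 250 bases before the start to 50 after. The motif searched was AGGTCA, then any 1 base, then AGGTCA again, on either strand and with at most 2 mismatches outside the free base. It was found in windows of 4 of the 32 members (12.5%) and in 3.86% of all 32851 windows. The ERR motif TCAAGGTCA, searched without mismatches on both strands and which shares its AGGTCA letters with the other motif, was found in 0 of the 32 and in 0.423% of all windows. A match is a description of letters and not of binding. The 4 matches are shown because they fall in members whose transcripts differed in direction, Fabp1 lower, Cd36 and Etfa higher, and Plin2 not called; capitals mark the matched letters, which are the motif's reverse complement, flanked by up to 20 bases that lie outside annotated exons.
Fabp1 chr6:71199792-71199826 (plus strand): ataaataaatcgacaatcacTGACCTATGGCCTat
Cd36 chr5:17835927-17835979 (minus strand): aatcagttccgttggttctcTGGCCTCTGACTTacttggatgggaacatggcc
Etfa chr9:55512288-55512340 (minus strand): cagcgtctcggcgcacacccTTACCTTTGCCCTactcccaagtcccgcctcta
Plin2 chr4:86670252-86670304 (minus strand): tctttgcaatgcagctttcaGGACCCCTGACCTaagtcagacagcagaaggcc
The Fabp1 match had 1 mismatch and began 67 bases before the RefSeq start. That start lies inside the first exon of Fabp1 in GENCODE M21, the annotation used here. The other 3 matches had 2 mismatches and began 63 (Cd36), 77 (Etfa) and 225 (Plin2) bases before their RefSeq starts. The Cd36 window (17835847 to 17836146) lies inside the annotated gene (17781690 to 17888801, minus strand), away from its annotated start.

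Of the 4 long-chain acyl-CoA synthetases, which trap fatty acids in the cell as acyl-CoA, 2 fell and 0 rose. Acsl4, the form that prefers arachidonic acid, stood at 117, 139.5 and 81.5 CPM in the WT-labelled libraries and 58.1, 69.8, 54.9 and 81.8 CPM in the KO-labelled ones. KO-labelled replicate 4 lay just above WT-labelled replicate 3, so the groups overlapped (log2 fold change -0.77, SE 0.20, adjusted p = 0.0237, edgeR). The call was lost without WT-labelled replicate 1 or 2 or KO-labelled replicate 1 or 3 and without the filter on low counts (adjusted p = 0.0548 to 0.0724, edgeR). Acsl5, found on mitochondria and endoplasmic reticulum, held 70.9, 69 and 51.6 CPM against 51.6, 45.2, 44.6 and 50.7 CPM (log2 fold change -0.41, SE 0.11, adjusted p = 0.023, edgeR). Here the highest KO-labelled value lay just under the lowest WT-labelled one. Its call was lost without WT-labelled replicate 1 or 2 or KO-labelled replicate 2 or 3 (adjusted p = 0.0568 to 0.0832, edgeR). Acsl1, the form most tied to oxidation, and Acsl3 were not called, at 172, 212 and 191 CPM against 144, 167, 165 and 209 CPM (log2 fold change -0.16, 95% interval -0.44 to 0.12, adjusted p = 0.355, edgeR) and 15.6, 15.7 and 16.7 CPM against 19.4, 20.3, 16.2 and 17.2 CPM (log2 fold change 0.19, 95% interval -0.01 to 0.39, adjusted p = 0.136, edgeR). Per kilobase of exon, Acsl1 made up 29.2 to 38.2% of the summed RPKM (CPM per kilobase) of the 4 genes in WT-labelled libraries and 34.8 to 40.5% in KO-labelled ones, and Acsl4 31.6 to 40.5% and 26.2 to 30.6%. Among 10 other uptake and activation genes 0 rose and 2 fell. These were Slc27a1, a carrier of muscle and fat (1.48-fold, adjusted p = 0.0014, edgeR), and Fabp7 (1.96-fold, adjusted p = 0.0402, edgeR), the latter at 2.25 to 2.52 CPM against 0.694 to 1.9 CPM and not called without any library except KO-labelled replicate 1 (adjusted p of up to 0.0904, edgeR).

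The carnitine shuttle, the gate into the mitochondrion, was higher at its inner-membrane enzyme. Cpt2 stood at 95.3, 99.4 and 91.9 CPM in the WT-labelled libraries and 108, 118, 131 and 135 CPM in the KO-labelled ones, with every KO-labelled library above the WT-labelled ones (log2 fold change 0.36, SE 0.08, adjusted p = 0.0106, edgeR). Cpt1a, the outer-membrane enzyme that limits the rate of entry, held 347, 430.5 and 328 CPM in the WT-labelled libraries and 445, 434, 429 and 426 CPM in the KO-labelled ones (log2 fold change 0.23, 95% interval 0.02 to 0.45, adjusted p = 0.0911, edgeR). It was not called, with WT-labelled replicate 2 inside the KO-labelled range. Without that library it was called higher (log2 fold change 0.36, adjusted p = 0.00941, edgeR), and so it was with limma on the deposited normalized values (adjusted p = 0.0423). Among 8 other carnitine genes with a row 3 rose and 2 fell. Crot, the peroxisomal octanoyltransferase, rose 1.82-fold (adjusted p = 0.00128, edgeR) and the carnitine carrier Slc22a5 1.29-fold (adjusted p = 0.00345, edgeR). Cpt1b, the muscle form of the gate enzyme, fell 1.86-fold from 35.4, 34.8 and 40.5 CPM to 24, 15.4, 19 and 21.1 CPM (adjusted p = 0.00193, edgeR). Bbox1, the last enzyme of carnitine synthesis, was at 1.57, 2.54 and 1.91 CPM against 0.449, 0.727, 0.636 and 0.501 CPM (adjusted p = 0.000854, edgeR).

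Acyl-CoA dehydrogenases begin each cycle and are divided by chain length. Of the members, medium-chain Acadm and short-chain Acads rose, while very-long-chain Acadvl and long-chain Acadl were not called. Acad9, a related dehydrogenase outside the members, was called higher and is given further on. Acadm, the medium-chain enzyme, stood at 371, 394 and 362 CPM in the WT-labelled libraries and 576, 655, 725 and 705 CPM in the KO-labelled ones, a 1.77-fold rise (log2 fold change 0.82, SE 0.09, adjusted p = 0.000329, edgeR). Acads, the short-chain enzyme, held 99, 106 and 94.1 CPM in the WT-labelled libraries and 133, 137, 144 and 133 CPM in the KO-labelled ones (log2 fold change 0.46, SE 0.06, adjusted p = 0.00102, edgeR). In both genes the lowest KO-labelled library was above the highest WT-labelled one. Acadvl, the very-long-chain enzyme, had 198, 223 and 191 CPM against 181, 186, 199.9 and 199 CPM (log2 fold change -0.09, 95% interval -0.26 to 0.07, adjusted p = 0.389, edgeR), and Acadl, the long-chain enzyme, had 178, 195 and 159 CPM against 168, 182, 180.0 and 193 CPM (log2 fold change 0.03, 95% interval -0.16 to 0.22, adjusted p = 0.815, edgeR). The upper bounds of their intervals, 0.07 and 0.22, lie under the lower bounds for Acadm (0.62) and Acads (0.31). The sign for Acadl changed without WT-labelled replicate 3 or KO-labelled replicate 4 (log2 fold change -0.05 and -0.0033, edgeR).

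As a share of the summed RPKM of these 4 genes, Acadm took 30.7 to 32.5% in the WT-labelled libraries and 41.2 to 44.8% in the KO-labelled ones. Acadvl took 24.4 to 25.3% and 17.9 to 18.9%, and Acadl 27.8 to 29.7% and 21.7 to 23.6%, so both were below in every KO-labelled library. Acads took 14.2 to 14.6% and 14.3 to 16.4%, with overlap. These shares depend on annotated exon lengths, which are the same for every library. The other 3 dehydrogenases were not called. Acad10 lay at 53.8 to 64.6 CPM over the 7 libraries (log2 fold change 0.06, 95% interval -0.09 to 0.21, adjusted p = 0.52, edgeR). Acad11 lay at 211, 256 and 205 CPM against 192, 212, 211 and 211 CPM (log2 fold change -0.12, 95% interval -0.31 to 0.08, adjusted p = 0.34, edgeR), and Acadsb, which acts on short branched chains from isoleucine, at 119, 109 and 96.5 CPM against 93.3, 113, 99.2 and 112 CPM (log2 fold change -0.05, 95% interval -0.26 to 0.16, adjusted p = 0.72, edgeR). Among 16 related mitochondrial oxidation enzymes 6 rose and 0 fell, with a median log2 fold change of 0.15. They included Ivd, the dehydrogenase of leucine breakdown (1.83-fold, adjusted p = 7.6e-05, edgeR), Acad9, a dehydrogenase that also helps assemble respiratory complex I (1.85-fold, adjusted p = 0.000161, edgeR), Acad8 of valine breakdown (1.31-fold, adjusted p = 0.00103, edgeR) and Pcca, a subunit of propionyl-CoA carboxylase (1.28-fold, adjusted p = 0.00275, edgeR).

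**Figure D2:**
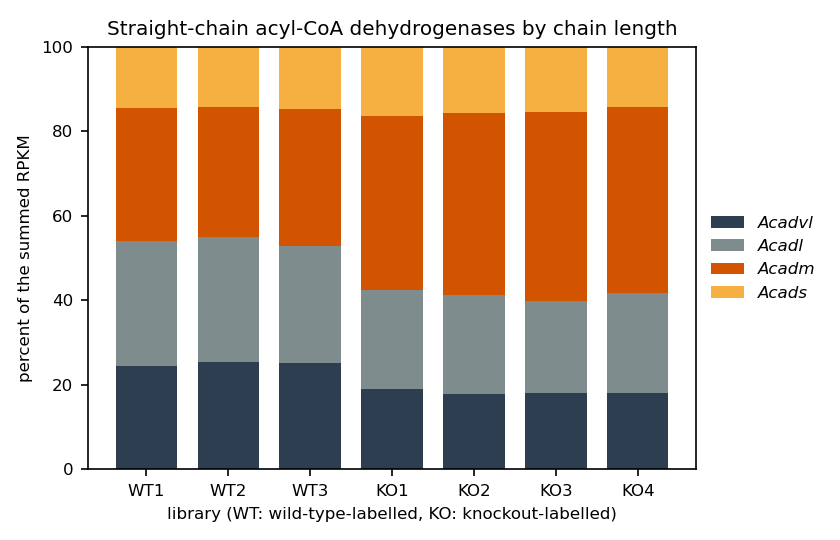
Share of the summed RPKM (CPM per kilobase of exon) that each of the 4 straight-chain acyl-CoA dehydrogenase genes takes, as stacked bars for the 7 libraries. Acadm, the medium-chain gene, takes 30.7 to 32.5% in the 3 WT-labelled libraries and 41.2 to 44.8% in the 4 KO-labelled ones.

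Of the 4 members that carry out the later steps of the cycle 2 fell, 1 rose and 1 was not called. Acaa2, the mitochondrial thiolase of the last step, stood at 149.8, 188 and 189 CPM in the WT-labelled libraries and 105, 103, 107 and 114 CPM in the KO-labelled ones, a 1.63-fold fall without overlap (log2 fold change -0.71, SE 0.09, adjusted p = 0.000556, edgeR). Hadha, the alpha subunit of the trifunctional protein that handles long chains, held 173, 195 and 169 CPM in the WT-labelled libraries and 139.6, 146, 144 and 156 CPM in the KO-labelled ones (log2 fold change -0.29, SE 0.07, adjusted p = 0.0139, edgeR). Every KO-labelled value of Hadha was lower than the WT-labelled ones, and the call was lost without WT-labelled replicate 2 (adjusted p = 0.0506, edgeR). Hadhb, the beta subunit of the same complex, was not called, at 113, 119 and 94.2 CPM against 92.5, 101, 96.4 and 110.0 CPM (log2 fold change -0.12, 95% interval -0.33 to 0.09, adjusted p = 0.365, edgeR). Hadh, the dehydrogenase for medium and short chains, rose, with 198, 224 and 197 CPM in the WT-labelled libraries and 251, 285, 283 and 267 CPM in the KO-labelled ones (log2 fold change 0.40, SE 0.08, adjusted p = 0.00466, edgeR). The RPKM of Acadm over that of Acaa2 was 0.743 to 0.96 in WT-labelled libraries and 2.13 to 2.61 in KO-labelled ones, without overlap.

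Hadha and Hadhb lie head to head on chromosome 5 and are transcribed away from each other, so the stretch between them is shown as the promoter region they share. It spans 85 bases between the annotated ends of Hadha (ENSMUSG00000025745, mm10 chromosome 5, 30118304 to 30155162, minus strand) and Hadhb (ENSMUSG00000059447, mm10 chromosome 5, 30155248 to 30184593, plus strand), and is printed in lower case because neither motif was found in it.
Hadhb chr5:30155163-30155247 (plus strand): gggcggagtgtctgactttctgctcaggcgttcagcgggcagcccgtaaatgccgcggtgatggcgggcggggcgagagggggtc
The RPKM ratio of Hadha to Hadhb was 1.16 to 1.36 in the WT-labelled libraries and 1.07 to 1.14 in the KO-labelled ones, so the ranges did not overlap although Hadhb was not called.

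Auxiliary enzymes that reshape double bonds so that unsaturated acids can enter the cycle changed in 1 of 3 members. Eci1, an enoyl-CoA isomerase, fell from 79.7, 93.5 and 76.5 CPM to 59.6, 55.4, 67.9 and 65.8 CPM, without overlap (log2 fold change -0.42, SE 0.09, adjusted p = 0.00898, edgeR). Eci2, an isomerase found in mitochondria and peroxisomes, had 56.3, 68.1 and 60.2 CPM against 62.5, 61.6, 72.2 and 71.4 CPM (log2 fold change 0.12, 95% interval -0.07 to 0.32, adjusted p = 0.328, edgeR). Decr1, the dienoyl-CoA reductase, had 116, 127 and 92.9 CPM against 103, 117, 114 and 119 CPM (log2 fold change 0.02, 95% interval -0.21 to 0.25, adjusted p = 0.89, edgeR). Neither was called, and the sign for Decr1 changed without WT-labelled replicate 3 or KO-labelled replicate 2 or 4, and with limma-voom (log2 fold change -0.10 to -0.01 for the omission of WT-labelled replicate 3 and for limma-voom).

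Both subunits of the electron transfer flavoprotein, which accepts electrons from every acyl-CoA dehydrogenase of the matrix, rose by small amounts. Etfa stood at 120.0, 128 and 111 CPM in the WT-labelled libraries and 137, 148, 152 and 149.9 CPM in the KO-labelled ones (log2 fold change 0.29, SE 0.07, adjusted p = 0.0122, edgeR). Etfb held 146, 158 and 152 CPM in the WT-labelled libraries and 174, 176, 188 and 177 CPM in the KO-labelled ones (log2 fold change 0.23, SE 0.06, adjusted p = 0.0167, edgeR), a call lost without WT-labelled replicate 1 or KO-labelled replicate 3 (adjusted p = 0.0507 to 0.0743, edgeR). In both genes the groups were separate, with folds of 1.22-fold and 1.18-fold. Etfdh, which passes the electrons to ubiquinone, was not called, at 113, 125 and 109.7 CPM against 117, 125, 124 and 127 CPM (log2 fold change 0.09, 95% interval -0.05 to 0.24, adjusted p = 0.311, edgeR). The RPKM ratio of Etfa to Etfb overlapped between groups, 0.464 to 0.522 against 0.497 to 0.537.

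Of the 3 thioesterases, which release free fatty acids from acyl-CoA, 1 rose, 1 fell and 1 was not called. Acot13, a mitochondria-associated enzyme of a different protein family from the other pair, stood at 24.4, 24.4 and 27.8 CPM in the WT-labelled libraries and 41, 44.4, 43.3 and 40 CPM in the KO-labelled ones, a 1.65-fold rise (log2 fold change 0.72, SE 0.07, adjusted p = 0.000196, edgeR). Acot2, a mitochondrial long-chain thioesterase, fell from 42, 49.9 and 39.5 CPM to 30.7, 28.4, 31.5 and 35.6 CPM (log2 fold change -0.47, SE 0.10, adjusted p = 0.00681, edgeR). For both genes all KO-labelled libraries lay outside the WT-labelled range. Acot1, the cytosolic neighbour and near copy of Acot2 on chromosome 12, stood at 80.5, 109 and 87.1 CPM in the WT-labelled libraries and 50.5, 43.5, 57.9 and 83.6 CPM in the KO-labelled ones (log2 fold change -0.65, 95% interval -1.17 to -0.13, adjusted p = 0.0641, edgeR). KO-labelled replicate 4 lay inside the WT-labelled range, and without it Acot1 was called lower (log2 fold change -0.86, adjusted p = 0.00455, edgeR), as it was under 5 other alternatives, among them DESeq2 (adjusted p = 0.00406). How reads were divided between Acot1 and Acot2 was not given, so their separate values are uncertain. The RPKM of Acot13 over that of Acot2 was 1.44 to 2.08 against 3.32 to 4.62.

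**Figure D3:**
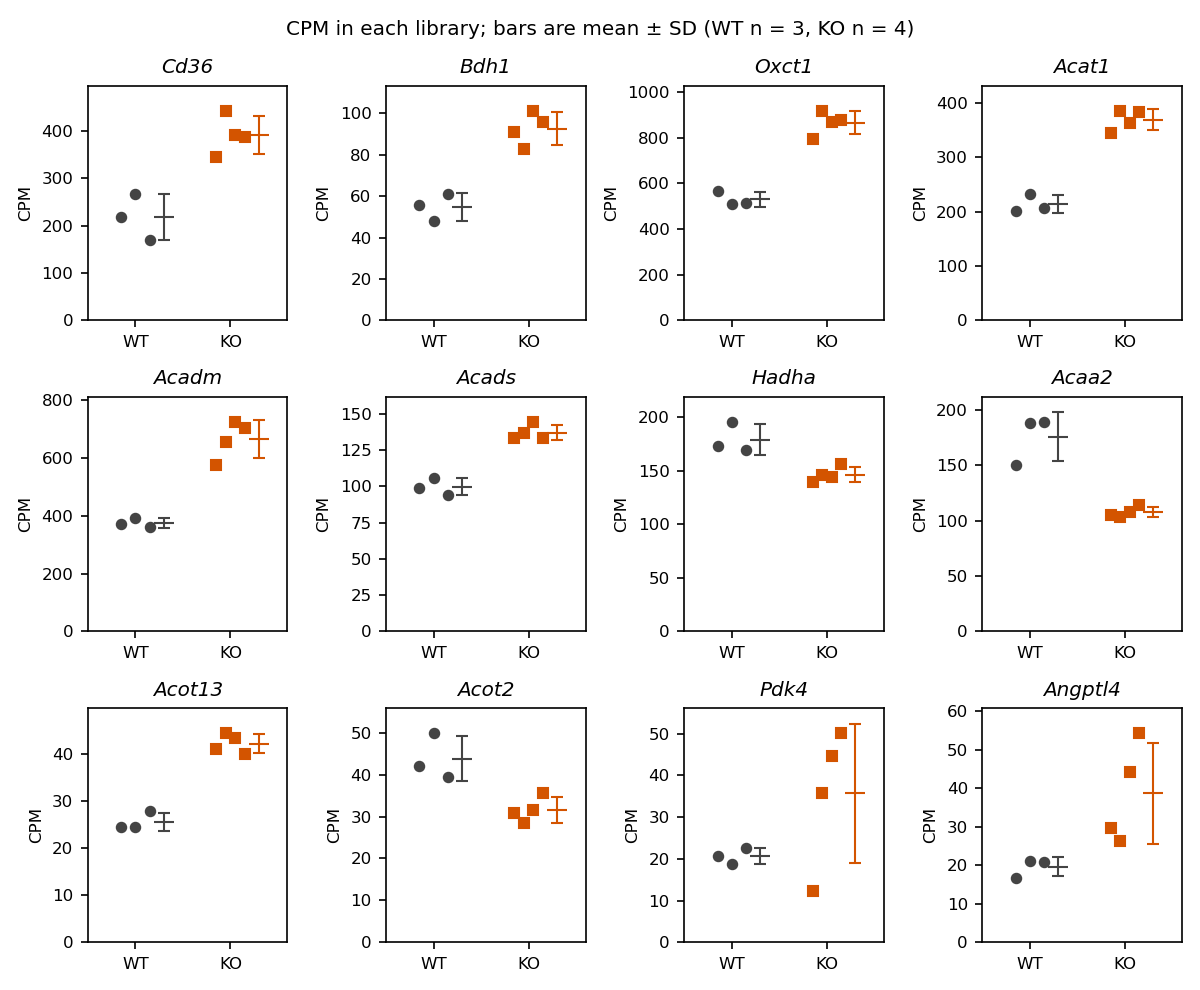
CPM of 12 members in each library, WT-labelled (WT, grey circles) and KO-labelled (KO, orange squares), each axis starting at 0, with mean ± SD beside the points (n = 3 and n = 4). Points of the groups are separate in every panel except Pdk4, where KO-labelled replicate 1, at 12.3 CPM, lies under the WT-labelled libraries and the other 3 above them.

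Of the 3 members that act in fuel choice and lipid handling, 1 rose and 2 were not called. Pdk4, a kinase that inhibits pyruvate dehydrogenase when fat is burned, held 20.7, 18.7 and 22.5 CPM in the WT-labelled libraries and 12.3, 35.7, 44.7 and 50.1 CPM in the KO-labelled ones. Replicate 1 lay below all WT-labelled libraries and the other 3 above them, and Pdk4 was not called (log2 fold change 0.79, 95% interval -0.29 to 1.87, adjusted p = 0.236, edgeR). Without KO-labelled replicate 1 it was called higher (log2 fold change 1.08, adjusted p = 0.00115, edgeR). Angptl4, a secreted inhibitor of lipoprotein lipase, stood at 16.8, 21.2 and 20.9 CPM in the WT-labelled libraries and 29.8, 26.3, 44.2 and 54.3 CPM in the KO-labelled ones. Its groups did not overlap, and the 1.97-fold rise was called (log2 fold change 0.98, SE 0.26, adjusted p = 0.0292, edgeR) but not without any of the 3 WT-labelled libraries, without KO-labelled replicate 3 or without the filter on low counts (adjusted p = 0.0717 to 0.104, edgeR). Plin2, which coats lipid droplets, was not called at 65, 87.4 and 60 CPM against 53.8, 57.7, 56 and 61.7 CPM (log2 fold change -0.31, 95% interval -0.58 to -0.03, adjusted p = 0.088, edgeR), and was called lower without WT-labelled replicate 3 (adjusted p = 0.0221, edgeR), with DESeq2 (adjusted p = 0.0499) and under 2 further alternatives.

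In the list of lipid droplet and lipolysis genes 5 of 17 tested rose and 0 fell. Lpl, the lipoprotein lipase that frees fatty acids from circulating triglyceride and the enzyme Angptl4 inhibits, stood at 162, 148 and 159.7 CPM in the WT-labelled libraries and 445, 657, 596 and 619.8 CPM in the KO-labelled ones, a 3.7-fold rise (log2 fold change 1.89, SE 0.13, adjusted p = 5.18e-05, edgeR). Lpl lies on chromosome 8, as Cdh11 does, from 68880491 to 68907448. So do Acsl1 (46471037 to 46536051, not called), Slc27a1 (71568882 to 71587302, lower) and Mlycd (119394878 to 119411102, higher). Got2 (95864134 to 95888547), Pdp2 (104591451 to 104599026) and Nudt7 (114133557 to 114154739), on the related lists, lie nearer to Cdh11 and were not called. A part of chromosome position in these changes was not tested. Cideb, a lipid droplet protein, rose 1.78-fold (adjusted p = 6.77e-05, edgeR), the hormone-sensitive lipase Lipe 1.53-fold (adjusted p = 0.00523, edgeR) and the lipase cofactor Abhd5 1.2-fold (adjusted p = 0.0205, edgeR). The call for Abhd5 was lost without WT-labelled replicate 1 or 3 or KO-labelled replicate 2 (adjusted p = 0.0599 to 0.0784, edgeR), with limma on the deposited normalized values (adjusted p = 0.0531) and with the factors of the deposited normalized table used as offsets (adjusted p = 0.0556, edgeR).

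All 3 ketone body members rose. Bdh1, the mitochondrial enzyme that interconverts acetoacetate and beta-hydroxybutyrate, stood at 55.7, 47.8 and 61.2 CPM in the WT-labelled libraries and 91, 82.6, 101 and 96.1 CPM in the KO-labelled ones (log2 fold change 0.76, SE 0.10, adjusted p = 0.000718, edgeR). Oxct1, which gives acetoacetate its coenzyme A and so opens ketone body use, held 567, 509.5 and 514 CPM in the WT-labelled libraries and 796, 916, 869 and 877 CPM in the KO-labelled ones (log2 fold change 0.70, SE 0.08, adjusted p = 0.000328, edgeR). Acat1, the mitochondrial acetoacetyl-CoA thiolase, which works in both directions and in isoleucine breakdown, held 201, 232 and 207 CPM in the WT-labelled libraries and 344, 385, 364 and 383 CPM in the KO-labelled ones (log2 fold change 0.79, SE 0.08, adjusted p = 0.000174, edgeR). No library of one group reached the range of the other in any of the 3. Their folds were 1.69-fold, 1.63-fold and 1.73-fold, and all 3 calls held under each of the 17 alternatives run. Per 1000 CPM of the 19 proximal tubule markers, Acat1 was at 11.3 to 13.9 in the WT-labelled libraries and 15.9 to 17.4 in the KO-labelled ones. On that scale Oxct1 (28.1 to 38.9 in the WT-labelled libraries and 36.8 to 39.7 in the KO-labelled ones) and Bdh1 (2.86 to 3.82 in the WT-labelled libraries and 3.55 to 4.58 in the KO-labelled ones) overlapped between groups.

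Of 10 further ketone body genes on a related list 9 were tested, 4 rose and 2 fell. The list summed to 764 to 988 CPM in the WT-labelled libraries and 632 to 718 CPM in the KO-labelled ones. That sum was thus lower in every KO-labelled library, although the genes named next all rose. Bdh2, a cytosolic dehydrogenase, rose 1.61-fold (adjusted p = 0.000121, edgeR), Aacs, which spends acetoacetate on lipid synthesis, 1.69-fold (adjusted p = 0.000286, edgeR), and Acat2, the cytosolic thiolase that feeds sterol synthesis, 1.48-fold (adjusted p = 0.00247, edgeR).

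Textbook PPAR-alpha targets outside the members did not move as a block. Of 20 listed 17 were tested, with 2 higher, 5 lower and a median log2 fold change of -0.11. Aldh3a2, a fatty aldehyde dehydrogenase, rose 2-fold (adjusted p = 9.7e-05, edgeR), and the omega-hydroxylase gene Cyp4a10 fell 4.65-fold (adjusted p = 0.000221, edgeR). Mlycd, given above as higher, is on this list too, and so is Cyp4a14, given under other observations as lower. Acot3 and Cyp4a31, singled out after their values were seen, fell 2.31-fold (adjusted p = 0.00707, edgeR) and 1.74-fold (adjusted p = 0.00345, edgeR). The list summed to 5373 to 7844 CPM in the WT-labelled libraries and 2969 to 4032 CPM in the KO-labelled ones. Abundant genes weigh most in that sum.

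By RPKM, Slc27a2 ranked 1 and Oxct1 ranked 2 of the 37 in both groups, and Fabp1 ranked 37. Slc27a2 stood at 425 RPKM (mean, n = 3) and 629 RPKM (mean, n = 4), and Oxct1 at 143 and 234 RPKM. Acaa2 moved from rank 4 to 10 and Acsl4 from 21 to 30, while Bdh1 moved from 30 to 19, Cd36 from 9 to 5 and Acat1 from 10 to 6. The summed CPM of the 37 members was 6116 to 6870.5 in the WT-labelled libraries and 7733 to 8362 in the KO-labelled ones. Slc27a2 is the largest item of this sum in every library. The models of 8 members overlap another gene with counts, Fabp3 (Zcchc17), Acsl3 (Utp14b, on the same strand), Acsl5 (Zdhhc6), Acadvl (Dvl2), Acadsb (Fgfr2), Oxct1 (BC037032), Bdh1 (Gm15743) and Eci2 (Gm16984), and their values are uncertain to that extent.

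**Figure D4:**
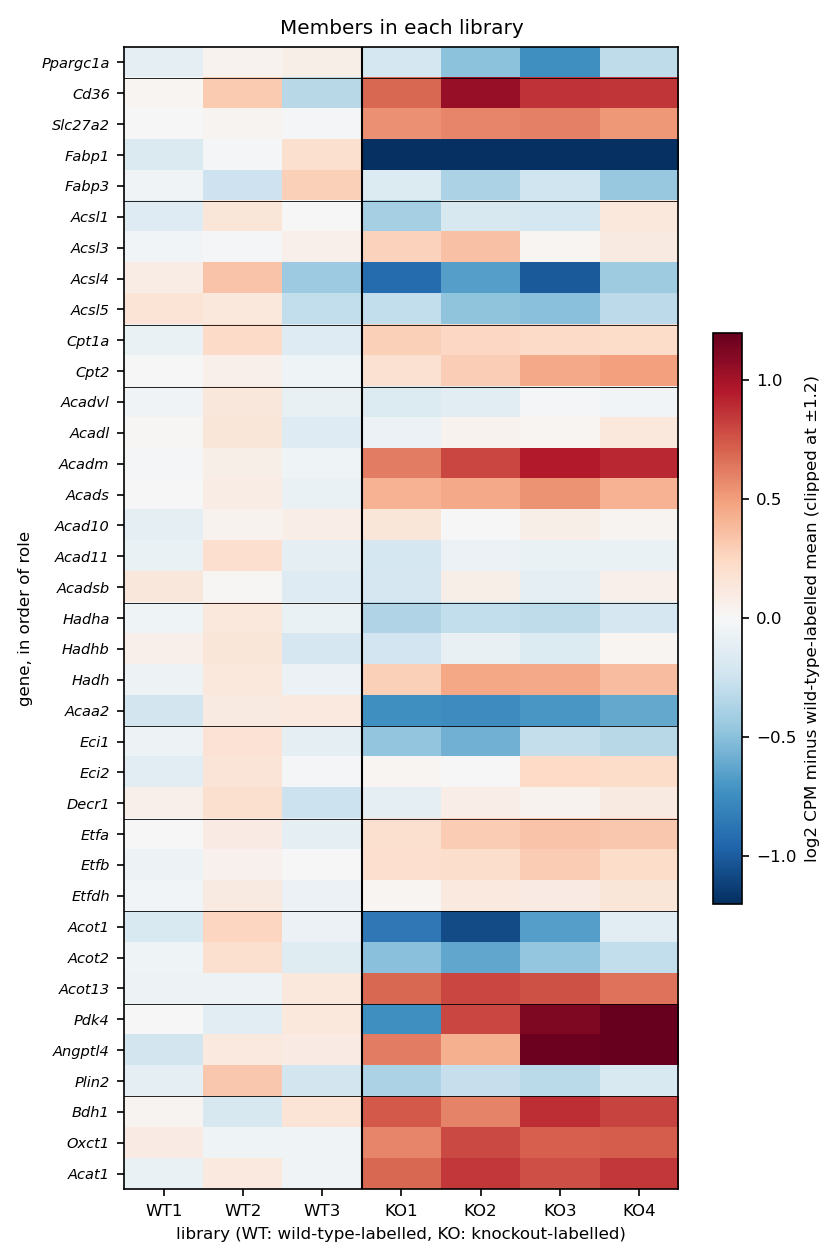
Log2 CPM of the 37 members in each of the 7 libraries minus the mean of the WT-labelled libraries, in order of role, with colour clipped at 1.2 in either direction. The KO-labelled columns are red for Cd36, Slc27a2, Acadm, Acot13, Bdh1, Oxct1 and Acat1, blue for Fabp1, Acsl4, Acaa2 and Acot2, and mixed for Pdk4.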

How the data were processed

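RNA from 7 whole kidneys was sequenced from directional libraries, per the labels' protocols. The authors deposited expected counts per gene, as whole numbers, and a normalized table. The deposited normalized values, a signal, equal the counts scaled by factors that differ between genes within a library. DRAGEN, DESeq2 and the build mm10 are named in the submitters' processing notes; neither the annotation release nor the strand setting is given in the sources used here. The members and lists were chosen with earlier results of these data known.

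Symbols matched for 42170 of 42256 identifiers (GENCODE M21, same assembly), which also gave exon lengths. All 21 pairs of libraries differed by more than sampling noise (median chi-square per gene 2.72 to 12.6). filterByExpr left 17964 genes, and edgeR 4.0.16 (R 4.3.3; TMM, robust quasi-likelihood, 2-sided, no covariates) was fitted to all 7 libraries and tested on simulated data. SEs come from the log2 fold change and its F statistic, and 95% intervals are not adjusted. RPKM is CPM per kilobase of exon. Named are all members, up to 4 called genes of each related list by adjusted p, and those said to be singled out. Some uncalled genes are also named for their place on chromosome 8. Tmlhe, on the carnitine list, was not analysed here. Alternatives were DESeq2 1.42.0, limma 3.58.1 (voom with quality weights, and trend on the deposited normalized values, log2 after adding 1), other scalings and filters, no robust estimation, no mitochondrially encoded genes and omission of each library; the deposited factors as offsets were added after seeing the data. Some genes of the related lists, though within their counts, are not reported here by name, and protein sequences were not used.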

Additional observations from a re-analysis of the deposited data

Results flagged for a closer look

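Acad11 in KO-labelled replicate 1 stood at 191.8 CPM, away from 210.6, 210.8 and 211.5 CPM in the other 3 KO-labelled libraries. Its gap to the nearest of them was 0.954 of the group's range, above Dixon's critical value for 4 samples. The 37 members were each examined in the 4 KO-labelled libraries and 1 was singled out, where chance gives about 1 in 20. The gene was not called, and without that library its log2 fold change was -0.08 (adjusted p = 0.537, edgeR).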

How the results depend on the processing

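Of the 21 members called, 14 kept direction and call under all 17 alternatives (11 of 13 higher, 3 of 8 lower), and 6 lost the call under at least 1, as given beside them. Fabp1 was called lower under the 16 that could test it. It passed the main filter only through the WT-labelled libraries, so no support is drawn from its calls. Of the 16 not called, 5 were called under at least 1. With each library left out in turn the members called higher numbered 11 to 14 and those called lower 5 to 9. Without WT-labelled replicate 2, 5 were lower. An adjusted p under 0.01 left 9 higher and 4 lower, and one under 0.1 gave 14 and 11. Over the 10 other alternatives 12 to 14 were higher and 7 to 10 lower. Relative log expression and upper-quartile scaling and leaving out mitochondrially encoded genes changed no call among the members. In edgeR the sign changed only in members close to 0, with log2 fold changes over the omitted libraries of -0.054 to 0.10 for Acadl, -0.0042 to 0.092 for Acad10, -0.13 to 0.012 for Acadsb and -0.10 to 0.12 for Decr1, and with limma-voom Decr1 was at -0.013. The cause was not tested. A mean of at least 1 CPM removed Fabp1. No paired analysis was possible because the labels give no replicate numbers and the numbers used only name libraries. At these depths counting error is small for all members but Fabp1, and the 3 and 4 libraries limit precision.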

Other observations

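The omega-hydroxylase gene Cyp4a14, singled out after its values were seen, stood at 1112, 1625 and 1154 CPM in the WT-labelled libraries and 71.2, 28.3, 44.8 and 122 CPM in the KO-labelled ones (log2 fold change -4.28, SE 0.52, adjusted p = 0.00202, edgeR). Plin5, a droplet protein that links stores to mitochondria and likewise singled out, stood at 1.54, 1.71 and 2.76 CPM in the WT-labelled libraries and 2.89, 4.42, 6.56 and 7.79 CPM in the KO-labelled ones (log2 fold change 1.43, SE 0.37, adjusted p = 0.0214, edgeR). In both genes the groups were separate. The call for Plin5 was lost without WT-labelled replicate 1 or 2 or KO-labelled replicate 3 (adjusted p = 0.0532 to 0.0828, edgeR). Among the KO-labelled libraries Pdk4, Angptl4 and Plin5 were each highest in replicate 4 and next highest in replicate 3, at 50.1, 54.3 and 7.79 CPM in replicate 4.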
